A study of Mus musculus with 8 samples.

Results

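Of 31 genes that make cholesterol, sense it or move it between membranes, 21 fell and 2 rose in the Taf8-deleted embryonic mouse cerebral cortex, beside 29.6% lower and 29.5% higher among all genes tested. The 31 genes, chosen with earlier results of these data known, were taken by symbol from a matrix of 27179 genes. Their shares beside those of all tested genes are therefore a description, not an independent test. All 31 genes were present and passed the filter on low counts. They comprise 18 enzymes of cholesterol synthesis, 7 regulators of sterol level, and 6 genes of sterol transport and export. Polyadenylated RNA was sequenced from 4 wild-type embryos (Taf8 +/+) and 4 Taf8-deleted embryos (Taf8 -/lox, a null allele beside a lox allele), 1 embryo to a library. Taf8 encodes a subunit of TFIID, the general transcription factor that binds core promoters and helps RNA polymerase II to start. The sources used here do not name the embryonic day, the strain or the Cre driver, and so not the cells in which the lox allele was recombined.

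Cholesterol is built from acetyl-CoA. The first enzymes join acetyl units into mevalonate and then isoprene units, which are condensed to farnesyl pyrophosphate and squalene. Squalene is closed into lanosterol, and lanosterol is trimmed and rearranged to cholesterol. The synthesis genes share a control circuit. When sterols are low in the endoplasmic reticulum, the escort protein SCAP carries SREBP transcription factors to the Golgi, where proteases release their active part, and when sterols are high the INSIG proteins hold SCAP back. The liver X receptors (LXRs) answer oxysterols and turn on export genes. The brain depends largely on its own synthesis, since lipoproteins of the blood barely cross the blood-brain barrier.

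The libraries held 26312505 to 65523487 counts in genes. Levels are given in CPM (counts scaled to the library's TMM-adjusted size), as means ± SD of n = 4 embryos, and differences as log2 fold changes of deleted over wild-type with their standard errors (SE) or 95% intervals, which are not adjusted for the number of genes. A gene is said to have risen or fallen when its Benjamini-Hochberg adjusted p was under 0.05 in edgeR's quasi-likelihood test over 15649 genes. Taf8 counts were 1160, 1405, 2047 and 1281 in wild-type replicates 1 to 4 and 30, 23, 13 and 29 in deleted replicates 1 to 4, in keeping with the labels. Deletion of Taf8 went with change in much of the transcriptome: 59.2% of tested genes passed the threshold, 29.5% higher and 29.6% lower, and the groups did not overlap in 53.6%. The near-equal shares depend on the scaling: with library size alone 5257 genes rose and 4104 fell. CPM is relative to the other RNA of a library, so a change shared by most genes would not show. Animal numbers in the labels share no first part between the groups, so any litter or batch that they mark cannot be told apart from genotype. Wild-type replicates 1 to 3 (408.4, 408.5 and 408.6) share a first part, while wild-type replicate 4 and each deleted embryo have their own. Whether those 3 embryos were littermates is not stated in the sources used here. Cortex markers were abundant: the summed level of 12 neuron markers was 6479 to 7863 CPM in wild-type and 4895 to 5501 CPM in deleted libraries, and that of 10 radial glia markers was 2723 to 2952 and 3374 to 3696 CPM.

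Among the enzymes, 14 of 18 fell and 0 rose, beside 29.6% lower and 29.5% higher among all tested genes. The median log2 fold change of the 18 was -0.39, against 0.01 over all tested genes, and all 18 values were below 0. The groups did not overlap in 14 of the 18, each lower, where 27% of all tested genes were lower without overlap. Summed over the 18 enzymes, the level was 1602 to 1724 CPM in wild-type and 1127 to 1252 CPM in deleted libraries, a mean ratio of 0.708. In deleted replicates 1, 2 and 3 each of the 18 genes lay below its wild-type mean, and in deleted replicate 4 it was 16 of them. The 18-gene median stood at -0.45, -0.42, -0.38 and -0.34 on the log2 scale in deleted replicates 1 to 4, relative to the wild-type mean, and at 0.01, 0.03, -0.05 and -0.04 in wild-type replicates 1 to 4. In bulk tissue, fewer cells of a type that expresses a gene and less RNA per cell cannot be told apart. Of the 12 neuron markers 11 fell and 0 rose (median log2 fold change -0.41), and of the 10 radial glia markers 6 rose and 3 fell (median 0.39). Of 7 tested markers of oligodendrocyte precursors and astrocytes 4 fell and 0 rose, of 10 endothelium and pericyte markers 10 rose, and of 8 red blood cell markers 5 rose and 0 fell. The summed choroid plexus markers ran from 15.7 to 414.1 CPM in wild-type and from 14.4 to 1235 CPM in deleted libraries. The part of these cell types in the fall of the enzymes was not tested.

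**Figure D1:**
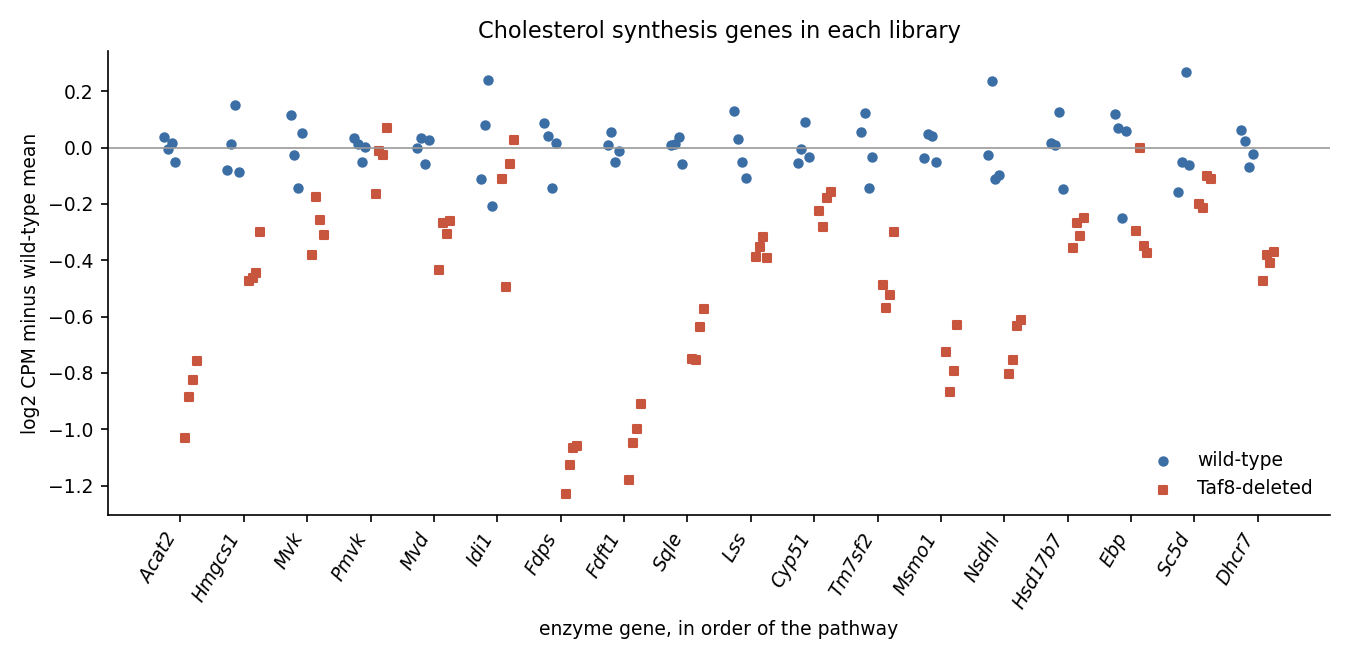
Level of each of the 18 synthesis genes in each library, as log2 CPM relative to the gene's wild-type mean, with the genes in pathway order. The 4 deleted libraries lie below the wild-type libraries for 14 genes, furthest for Fdps and Fdft1, while the groups overlap at Pmvk, Idi1, Ebp and Sc5d.

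Since TFIID acts at core promoters, the sequence before the start of several members is shown, chosen for the letters that members share and for how their genes moved. Sequences and starts are RefSeq's (GRCm38.p6, the same sequence as mm10), each printed 5′ to 3′ on the gene's own strand and ending at the base before the start. Capitals mark the sterol regulatory element letters TCACNCCAC, the CCAAT box (CCAAT, or ATTGG on the other strand) and the TATA box letters TATAAA, all searched on both strands, and none of these letter runs contains another. Hmgcs1 is shown with 200 bases because of the 25 members searched it was the 1 with the sterol regulatory element letters. Mvk, Mvd and Nsdhl are enzymes that fell, and Ebp and Sc5d are enzymes that did not pass the test. Abca1 is an export gene with the TATA box letters. These are shown with 120 bases each.
Hmgcs1 (chr13:119690151-119690350, plus strand): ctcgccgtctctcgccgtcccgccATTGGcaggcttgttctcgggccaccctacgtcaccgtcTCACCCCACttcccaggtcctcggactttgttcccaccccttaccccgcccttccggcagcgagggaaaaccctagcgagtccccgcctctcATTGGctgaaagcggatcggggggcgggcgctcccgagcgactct
Mvk (chr5:114444149-114444268, plus strand): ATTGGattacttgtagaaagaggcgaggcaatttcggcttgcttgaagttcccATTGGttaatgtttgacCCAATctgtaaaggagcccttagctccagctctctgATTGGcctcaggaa
Mvd (chr8:122443423-122443542, minus strand): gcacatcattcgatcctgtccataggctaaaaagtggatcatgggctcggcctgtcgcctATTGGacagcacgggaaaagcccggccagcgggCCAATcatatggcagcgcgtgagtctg
Nsdhl (chrX:72918401-72918520, plus strand): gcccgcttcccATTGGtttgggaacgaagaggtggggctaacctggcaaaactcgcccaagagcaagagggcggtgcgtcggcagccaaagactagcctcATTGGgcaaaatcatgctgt
Ebp (chrX:8193513-8193632, minus strand): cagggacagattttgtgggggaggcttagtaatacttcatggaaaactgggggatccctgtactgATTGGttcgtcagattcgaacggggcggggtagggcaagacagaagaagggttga
Sc5d (chr9:42264301-42264420, minus strand): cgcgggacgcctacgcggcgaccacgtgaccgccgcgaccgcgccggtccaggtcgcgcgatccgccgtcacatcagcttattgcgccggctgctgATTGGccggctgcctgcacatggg
Abca1 (chr4:53159896-53160015, minus strand): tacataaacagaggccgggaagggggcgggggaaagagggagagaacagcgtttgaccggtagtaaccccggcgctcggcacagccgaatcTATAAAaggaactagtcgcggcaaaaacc

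Promoter windows of 250 bases before to 50 after the start were used for 25 of the 31 members, and Fdps, Fdft1, Sqle, Stard4, Npc1 and Abcg1 were not analysed here. Fdps, Stard4 and Fdft1 had the steepest falls of all members (log2 fold change -1.12, -1.08 and -1.03). The shares below therefore do not cover the genes that fell most. The CCAAT box letters, which bind the factor NF-Y, lay in a window of 14 of 15 enzymes, 4 of 7 regulators and 1 of 3 transport genes, and in 41.1% of all 27025 genes with a window. Among the 11840 tested genes with a window the share was 42.9%. It was 44.8% among the 3557 of these that fell and 41.1% among the 3537 that rose. The shares of tested genes that follow are over the same 11840. The GC box letters GGGCGG, read by Sp factors, lay in 14 of 15 enzymes, 5 of 7 regulators and 2 of 3 transport genes, against 67.8% of tested genes. TATAAA was in 0 of 15 enzymes, 1 of 7 regulators and 2 of 3 transport genes, against 8.99% of tested genes. In Abca1 it lay at bases -29 to -24 from the start. In Apoe the matches lay further away, at -100 to -95 and -96 to -91 from one of its annotated starts. In Scap the match lay at -182 to -177 or -250 to -245, depending on the annotated start. The E-box letters CACGTG were in 3 of 15, 2 of 7 and 1 of 3, against 11.3%. In the 150 bases before the start alone, TATAAA was in 0 of 15, 0 of 7 and 2 of 3, against 4.46% of tested genes, and CCAAT in 14 of 15, 3 of 7 and 1 of 3, against 31.5%. The sterol regulatory element match of Hmgcs1 lies 137 to 129 bases before its start, and such letters were in 1.44% of all genes with a window. Acat2 was the enzyme without CCAAT letters, and it fell (log2 fold change -0.87). Mvk, Mvd and Nsdhl, which fell, and Ebp and Sc5d, which did not pass the test, hold CCAAT letters in the sequences above. Those sequences were chosen partly for such letters, so they cannot compare enzymes that fell with the others. A match is only a run of letters and shows no binding. Only the letters given were searched, so a missing match does not show that a gene lacks such an element.

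The path up to squalene has 8 of the enzymes, of which 6 fell (29.6% of all tested genes fell), with a median log2 fold change of -0.37. Their summed level went from 907.9 ± 33.4 to 623.9 ± 35.3 CPM. Acat2, the cytosolic thiolase that joins 2 acetyl-CoA molecules at the start of the route (chromosome 17, 12943042 to 12960725, mm10), stood at 141, 137, 139 and 133 CPM in wild-type replicates 1 to 4. In deleted replicates 1 to 4 it stood at 67.3, 74.4, 77.7 and 81.3 CPM. Its level was 45.4% lower (log2 fold change -0.87, SE 0.06, adjusted p = 5.79e-07), and each deleted library lay far below the lowest wild-type library. Acat2 is 97.7% identical to Acat3 over 1477 bases, and Acat3, at 0.571 ± 0.125 CPM in wild-type cortex, fell too (log2 fold change -0.73, adjusted p = 0.0225). It also shares 445 bases at 98.7% identity with Tcp1, which had a log2 fold change of -0.16.

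Hmgcs1, the synthase that makes HMG-CoA (chromosome 13, 119690351 to 119708260), was the most abundant member per transcript length, at 152 RPKM (counts scaled for library size and gene length) in wild-type cortex. Next in order were Srebf2 at 80.1, Sqle at 70.4 and Acat2 at 66.3 RPKM. Hmgcs1 measured 471, 502, 552 and 469 CPM in wild-type replicates 1 to 4 and 358, 361, 365 and 404 CPM in deleted replicates 1 to 4. Deleted replicate 4 stood above the other 3 deleted libraries and still below every wild-type library. The fall was 25.4% (log2 fold change -0.42, SE 0.06, adjusted p = 0.000157). Mvk, the kinase that first phosphorylates mevalonate, fell from 35.2 ± 2.69 to 28.9 ± 1.76 CPM (log2 fold change -0.28, SE 0.07, adjusted p = 0.00379). Pmvk, which adds the next phosphate, did not pass the test: it had 42.1, 41.5, 39.7 and 41.2 CPM in wild-type and 36.7, 40.8, 40.4 and 43.2 CPM in deleted replicates (log2 fold change -0.03, 95% interval -0.14 to 0.09, adjusted p = 0.659). Only deleted replicate 1 lay below the wild-type range of Pmvk, and the other deleted libraries lay in or above it. Mvd, the decarboxylase that yields isopentenyl pyrophosphate, fell from 35.4 ± 1.03 to 28.4 ± 1.54 CPM (log2 fold change -0.32, SE 0.05, adjusted p = 0.000338).

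The 2 steepest falls among the enzymes were in the prenyl condensation steps. Fdps, which makes farnesyl pyrophosphate (chromosome 3, 89093588 to 89101967), had 33.6, 32.6, 28.6 and 31.97 CPM in wild-type replicates 1 to 4. It had 13.4, 14.4, 15.1 and 15.1 CPM in deleted replicates 1 to 4. The level was 54.1% lower (log2 fold change -1.12, SE 0.07, adjusted p = 3.27e-07). Fdft1, squalene synthase (chromosome 14, 63145150 to 63181687), measured 124, 128, 119 and 123 CPM in wild-type and 54.5, 59.7, 61.7 and 65.7 CPM in deleted replicates. That is 51.1% lower (log2 fold change -1.03, SE 0.06, adjusted p = 2.11e-07), again with no overlap. Idi1, the isomerase just before Fdps, was low at 1.61 RPKM and did not pass the test, at 4.25, 4.86, 5.43 and 3.97 CPM against 4.25, 3.25, 4.41 and 4.68 CPM (log2 fold change -0.16, 95% interval -0.47 to 0.15, adjusted p = 0.35). The groups of Idi1 overlapped, with deleted replicate 2 alone below the wild-type range.

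Copies limit these 3 genes. Fdps has 4 processed pseudogenes with 96.1% to 98.9% identity over stretches of 605 to 1066 bases, and it shares 929 identical bases with the annotated gene Gm43738. Idi1 has a pseudogene, Gm13502, that is identical over 684 bases, and another, Gm35570, at 97.7% over 681 bases. Fdft1 has the pseudogene Gm6781, 97.4% identical over 1249 bases. It also shares 774 bases with its neighbour Ctsb, whose locus it overlaps and which had a log2 fold change of 0.05 (adjusted p = 0.348). The sources used here do not say how the counting treated reads that fit several places, nor which strand setting it used.

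From squalene on there are 10 enzymes, of which 8 fell (again beside 29.6% of all tested genes), with a median log2 fold change of -0.39. Their summed level went from 756.9 ± 21.6 to 554.2 ± 20.9 CPM. Sqle, the monooxygenase that commits squalene to sterols (chromosome 15, 59315092 to 59331193), had 195, 195, 198 and 186 CPM in wild-type replicates and 115, 115, 124 and 130.0 CPM in deleted replicates. It fell by 37.5% (log2 fold change -0.68, SE 0.05, adjusted p = 1.48e-06), and the highest deleted library was far below the lowest wild-type one. Lss, the cyclase that forms lanosterol, fell from 60.95 ± 4.38 to 47.3 ± 1.14 CPM (log2 fold change -0.37, SE 0.05, adjusted p = 0.000166).

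Each enzyme that strips methyl groups from lanosterol fell. Cyp51, the 14-alpha demethylase, had 184, 190.0, 203 and 186 CPM in wild-type and 163, 157, 168 and 171 CPM in deleted replicates, 13.7% lower (log2 fold change -0.21, SE 0.05, adjusted p = 0.00243). Msmo1, the C4-methyl oxidase (chromosome 8, 64718123 to 64733578), had 86.7, 91.95, 91.5 and 85.8 CPM against 53.8, 48.6, 51.3 and 57.4 CPM. Msmo1 was 40.6% lower (log2 fold change -0.75, SE 0.05, adjusted p = 1.2e-06). Nsdhl, its partner decarboxylase on the X chromosome, measured 48.95, 58.7, 46.1 and 46.6 CPM in wild-type and 28.6, 29.5, 32.1 and 32.6 CPM in deleted replicates. Nsdhl was 38.7% lower (log2 fold change -0.71, SE 0.08, adjusted p = 3.15e-05), and in neither gene did the groups overlap. Hsd17b7, the 3-keto reductase of the same complex, fell from 20.9 ± 1.62 to 16.97 ± 0.573 CPM (log2 fold change -0.30, SE 0.07, adjusted p = 0.00242).

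Tm7sf2, a C14 sterol reductase, fell from 28.3 ± 2.23 to 20.4 ± 1.74 CPM (log2 fold change -0.46, SE 0.08, adjusted p = 0.000396). It overlaps Vps51, which also fell (log2 fold change -0.66), so that reads of the pair may not be told apart. Dhcr7, the 7-dehydrocholesterol reductase near the end of the route, fell from 67.0 ± 2.63 to 50.4 ± 1.63 CPM (log2 fold change -0.41, SE 0.04, adjusted p = 1.71e-05). The isomerase gene Ebp had 11.4, 11.1, 8.85 and 10.98 CPM in wild-type and 8.57, 10.5, 8.26 and 8.12 CPM in deleted replicates (log2 fold change -0.25, 95% interval -0.50 to -0.01, adjusted p = 0.0677). Ebp did not pass the test, and its groups overlapped because wild-type replicate 3 was low and deleted replicate 2 high. Leaving out the first gave an adjusted p of 0.0121 and leaving out the second 0.0125. Sc5d, the desaturase that acts after Ebp, had 41.02, 44.2, 55.2 and 43.9 CPM in wild-type and 39.9, 39.5, 42.7 and 42.3 CPM in deleted replicates (log2 fold change -0.17, 95% interval -0.35 to 0.02, adjusted p = 0.105). Wild-type replicate 3 stood above the other libraries for Sc5d, and without wild-type replicate 1 the adjusted p was 0.0419. In 21 of 22 alternatives Sc5d did not pass the test, and its log2 fold change over the 22 was -0.2305 to -0.0684.

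When a change had to exceed 1.2-fold, 10 of the 18 enzymes still fell, beside 14.9% of all tested genes. With the mean level of 10 microglia and macrophage markers as a covariate 12 fell, beside 18.6% of all tested genes. Cyp51 (log2 fold change -0.16, adjusted p = 0.133) and Hsd17b7 (-0.18, adjusted p = 0.208) were lost.

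**Figure D2:**
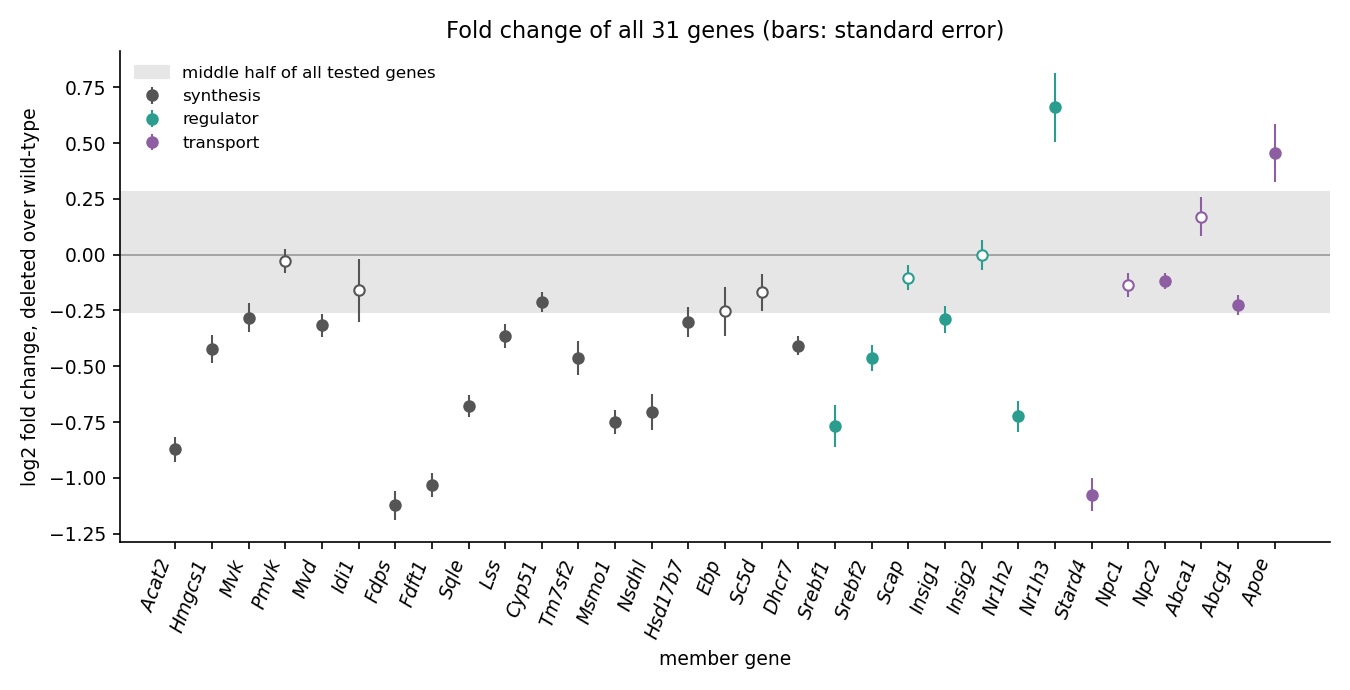
Log2 fold change of each of the 31 members, deleted over wild-type, with SE bars. Filled points passed the threshold and open points did not, and the grey band runs from the lower to the upper quartile of all tested genes, -0.26 to 0.28. Fdps, Stard4 and Fdft1 lie lowest, at -1.12, -1.08 and -1.03, and Nr1h3 and Apoe are the 2 genes that rose.

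Of the 7 regulators 4 fell (Srebf1, Srebf2, Insig1, Nr1h2), 1 rose (Nr1h3) and 2 did not pass the test (Scap, Insig2). The median log2 fold change was -0.29, and the groups did not overlap in 5 of the 7. Over all tested genes 29.6% fell, 29.5% rose and 53.6% did not overlap. Both SREBP genes fell. Srebf2, whose protein chiefly drives cholesterol synthesis genes (chromosome 15, 82147269 to 82205379), had 384, 389, 325 and 366 CPM in wild-type replicates 1 to 4 and 254, 277, 264 and 267 CPM in deleted replicates 1 to 4. It was 27.4% lower (log2 fold change -0.46, SE 0.06, adjusted p = 6.37e-05). Srebf1, whose protein drives fatty acid genes more than sterol genes (chromosome 11, 60199084 to 60224186), had 111, 101, 76.5 and 98.7 CPM in wild-type and 56.5, 56.96, 58.1 and 55.5 CPM in deleted replicates. It was 41.3% lower (log2 fold change -0.77, SE 0.09, adjusted p = 4.87e-05). Wild-type replicate 3 was the lowest wild-type library for both genes, above every deleted library. Srebf1 overlaps Rai1, which fell too (log2 fold change -0.20).

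Within a library, the log2 ratio of Srebf1 to Srebf2 was -1.792, -1.946, -2.084 and -1.892 in wild-type and -2.169, -2.283, -2.183 and -2.267 in deleted replicates. The ratio was 0.30 lower in the mean of the deleted libraries, with no overlap (exact two-sided permutation p = 0.0286, the smallest that 4 against 4 libraries allow, and 0.0357 after adjustment over 5 gene pairs). Srebf1 therefore fell more than Srebf2 did. Such ratios do not depend on how libraries are scaled.

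Scap, the escort protein, did not pass the test: it measured 109, 106, 95.2 and 104 CPM in wild-type and 92.5, 105, 96.7 and 91.2 CPM in deleted replicates (log2 fold change -0.10, 95% interval -0.23 to 0.02, adjusted p = 0.14). Leaving out wild-type replicate 3 (adjusted p = 0.0289) or deleted replicate 2 (adjusted p = 0.0215) put it past the threshold. The 2 INSIG genes, which encode the anchors of SCAP, differed. Insig1, itself a target of SREBPs, had 65.9, 72.01, 60.7 and 61.03 CPM in wild-type and 53.2, 49.6, 55.2 and 54.2 CPM in deleted replicates, a fall of 18.2% (log2 fold change -0.29, SE 0.06, adjusted p = 0.00193). Insig2 had 27.9, 28.9, 33.7 and 31.5 CPM in wild-type and 31.9, 28.2, 32.1 and 30.1 CPM in deleted replicates, with overlapping groups. Its 95% interval, -0.15 to 0.15 on the log2 scale, straddled 0 (adjusted p = 0.995). The log2 ratio of Insig1 to Insig2 was 1.237, 1.318, 0.849 and 0.952 in wild-type and 0.739, 0.815, 0.781 and 0.847 in deleted replicates (exact permutation p = 0.0286, adjusted 0.0357). The lowest wild-type ratio, in replicate 3, was close to the highest deleted ratio. Insig1 did not pass the test with the microglia marker level as a covariate (log2 fold change -0.28 with an SE of 0.105, adjusted p = 0.063, which was 3.78e-05 to 0.327 over all alternatives).

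The 2 LXR genes moved in opposite directions. Nr1h2, which encodes LXR-beta (chromosome 7, 44549616 to 44553968), had 66.8, 61.6, 53.3 and 66.3 CPM in wild-type and 38.3, 38.1, 36.9 and 36.5 CPM in deleted replicates. It fell by 39.5% (log2 fold change -0.72, SE 0.07, adjusted p = 8.49e-06), with the 4 deleted libraries close together. Nr1h3, which encodes LXR-alpha (chromosome 2, 91184061 to 91202829), was scarce, at 0.996, 1.17, 1.22 and 1.08 CPM in wild-type and 2.06, 1.88, 1.53 and 1.62 CPM in deleted replicates. It rose (log2 fold change 0.66, SE 0.15, adjusted p = 0.00379), and every deleted library was above every wild-type library. Per length, Nr1h2 stood at 31.6 and Nr1h3 at 0.548 RPKM in wild-type cortex. The log2 ratio of Nr1h2 to Nr1h3 was 5.999, 5.658, 5.392 and 5.880 in wild-type and 4.187, 4.302, 4.545 and 4.450 in deleted replicates, a mean difference of -1.36 (exact permutation p = 0.0286, adjusted 0.0357). Nr1h3 is expressed in macrophages. Of the 10 microglia and macrophage markers 6 rose and 1 fell, beside 29.5% and 29.6% of all tested genes. With the level of these markers as a covariate the log2 fold change of Nr1h3 was 0.74 (adjusted p = 0.0524). Its SE was then 0.27, against 0.15 in the main fit. The part of macrophages in the rise of Nr1h3 was not tested. Nr1h3 overlaps Acp2, which held 26503 counts in all and had a log2 fold change of -0.05.

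**Figure D3:**
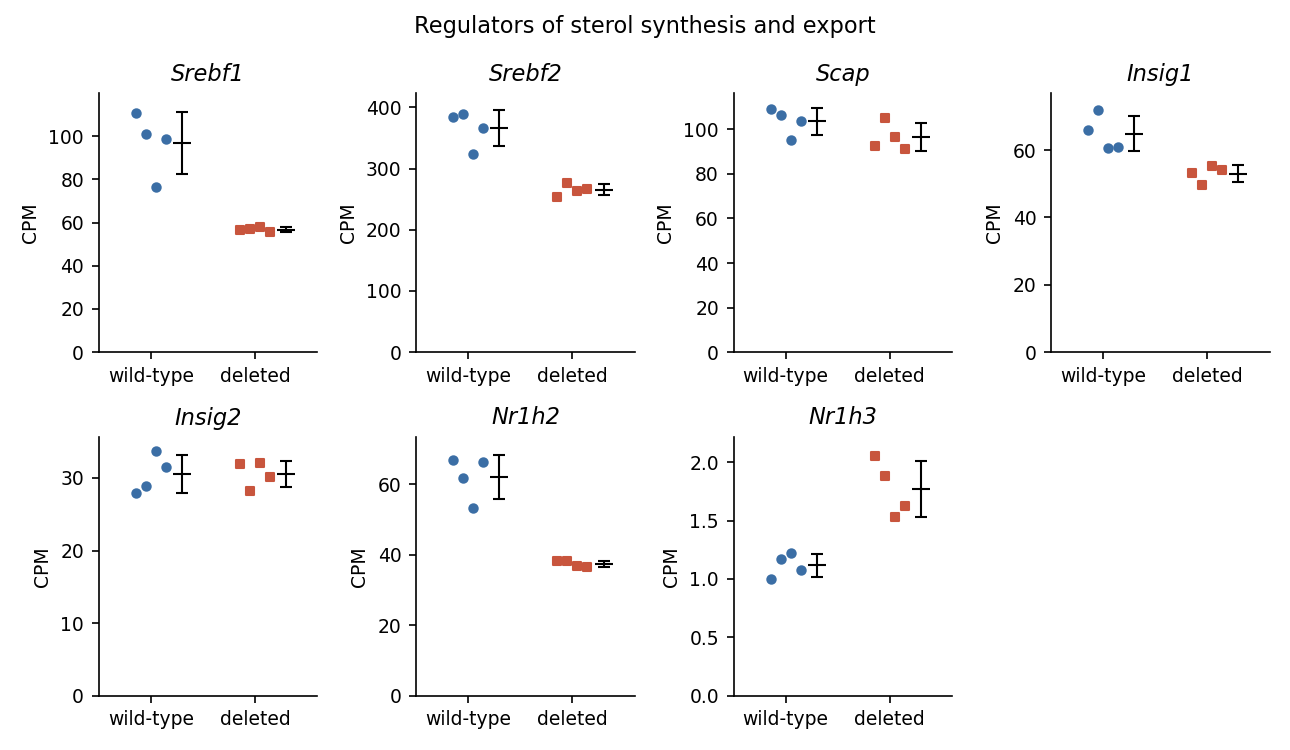
CPM of the 7 regulators in each library, with a bar for the group mean ± SD. The groups are apart for Srebf1, Srebf2, Insig1 and Nr1h2, which are lower in deleted libraries, and for Nr1h3, which is higher, and they overlap for Scap and Insig2.

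The transport genes gave a mixed picture. Of 6, 3 fell (Stard4, Npc2, Abcg1), 1 rose (Apoe) and 2 did not pass the test (Npc1, Abca1), with a median log2 fold change of -0.13 and no overlap in 4. The 4 of 6 called stand beside 59.2% of all tested genes, and the 4 without overlap beside 53.6%. Stard4, a soluble carrier that moves cholesterol between membranes and is a known SREBP-2 target, had 37.2, 35.8, 33.6 and 33.5 CPM in wild-type replicates 1 to 4. In deleted replicates 1 to 4 it had 15.4, 16.7, 15.1 and 18.9 CPM. It was 52.6% lower (log2 fold change -1.08, SE 0.07, adjusted p = 9.74e-07), the second steepest fall of all 31 members after Fdps. Every deleted library was far below the lowest wild-type library.

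Npc1 and Npc2 together hand cholesterol out of lysosomes. Npc2, the soluble partner, had 157, 153, 148 and 154 CPM in wild-type and 138, 144, 140.4 and 142 CPM in deleted replicates, 7.73% lower (log2 fold change -0.12, SE 0.04, adjusted p = 0.0176). The groups did not overlap, but the difference was small, and Npc2 was no longer past the test with library size alone or the upper quartile as the scaling (log2 fold change -0.07 and -0.09). It was also not past the test with the meningeal or the microglia covariate, where the log2 fold change was -0.12 with both and the SE 0.05 and 0.06. Npc1, the membrane partner, had 54.1, 51.4, 53.7 and 51.8 CPM in wild-type and 49.97, 50.96, 42.8 and 48.1 CPM in deleted replicates (log2 fold change -0.14, SE 0.05, adjusted p = 0.053). Npc1 just missed the threshold, and it passed with DESeq2 (adjusted p = 0.0419) and when wild-type replicate 2, deleted replicate 1 or deleted replicate 2 was left out. The log2 ratio of Npc1 to Npc2 differed by -0.02 between the groups (exact permutation p = 0.8). Npc1 overlaps Rmc1, which fell (log2 fold change -0.24).

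Abca1 and Abcg1 are membrane pumps that load cholesterol onto lipoproteins, and both are textbook LXR targets. Abcg1 fell, with 23.8, 23.9, 24.6 and 24.3 CPM in wild-type and 20.3, 19.99, 21.4 and 20.9 CPM in deleted replicates (log2 fold change -0.23, SE 0.05, adjusted p = 0.00154). Abca1 had 59.6, 62.02, 69.5 and 59.9 CPM in wild-type and 83.1, 65.5, 71.6 and 62.8 CPM in deleted replicates, and did not pass the test (log2 fold change 0.17, 95% interval -0.02 to 0.36, adjusted p = 0.11). Deleted replicate 1 was the highest library for Abca1, and without wild-type replicate 3, the highest of its group, its adjusted p was 0.0396. In 19 of 22 alternatives Abca1 did not pass the test, and its log2 fold change over the 22 was 0.0734 to 0.2651. The log2 ratio of Abca1 to Abcg1 was 1.324, 1.371, 1.499 and 1.298 in wild-type and 2.028, 1.710, 1.740 and 1.586 in deleted replicates. All deleted ratios were above all wild-type ratios, by 0.39 in the mean (exact permutation p = 0.0286, adjusted 0.0357), so the 2 pumps changed unequally.

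**Figure D4:**
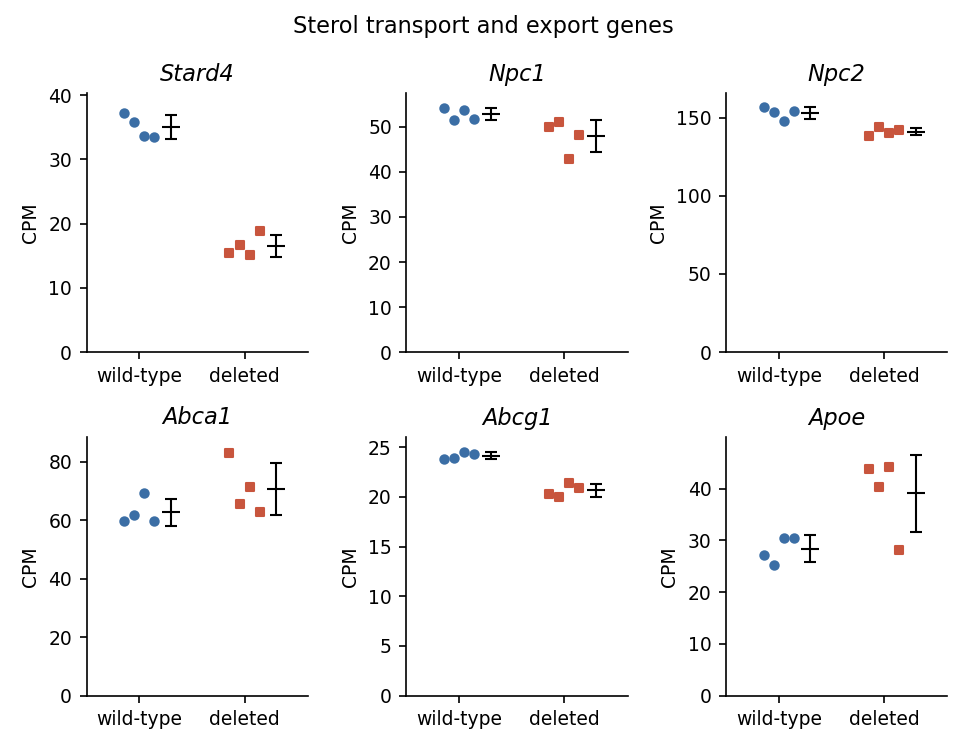
CPM of the 6 transport and export genes in each library, with a bar for the group mean ± SD. Deleted libraries are lower with no overlap for Stard4, Npc1, Npc2 and Abcg1, and for Apoe 3 deleted libraries are above the wild-type range while 1 lies in it.

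Apoe encodes the main apolipoprotein of the brain, made chiefly by glia and macrophages. It had 27.2, 25.3, 30.5 and 30.5 CPM in wild-type replicates 1 to 4 and 43.7, 40.3, 44.1 and 28.2 CPM in deleted replicates 1 to 4. It rose (log2 fold change 0.45, SE 0.13, adjusted p = 0.0117), with 3 of the 4 deleted libraries above every wild-type library and deleted replicate 4 in the wild-type range. Without deleted replicate 4 the log2 fold change was 0.57 (adjusted p = 0.000159). The same library was the lowest deleted one in microglia, macrophage and meningeal markers. Its summed neuron markers, at 5501 CPM, were the highest of the deleted libraries. Its radial glia markers, at 3586 CPM, lay within the range of the other deleted libraries. The summed level of 10 microglia and macrophage markers was 58.5, 62.6, 67.2 and 50.7 CPM in deleted replicates 1 to 4 and 45.0 to 54.3 CPM in wild-type libraries. The summed level of 10 meningeal fibroblast markers was 82.8, 139.8, 163.9 and 42.5 CPM in deleted replicates 1 to 4 and 37.2 to 58.2 CPM in wild-type libraries, and 6 of its 9 tested markers rose and 0 fell. In both lists 0 of 10 markers were at 0 counts in any library. The lowest count was 33 in the microglia and macrophage list but 1 in the meningeal list, where some markers were near the floor. When the fit held the meningeal level as a covariate, the log2 fold change of Apoe was 0.19 (SE 0.12, adjusted p = 0.235). With the microglia level it was 0.08 (SE 0.18, adjusted p = 0.773). Both sums were higher in deleted replicates 1 to 3 than in every wild-type library, so these fits cannot tell marker level apart from genotype. With the microglia level, 2777 of all 15649 tested genes rose and 2905 fell, against 4624 and 4633 in the main fit. The part of these cells in the rise of Apoe was not tested.

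**Figure D5:**
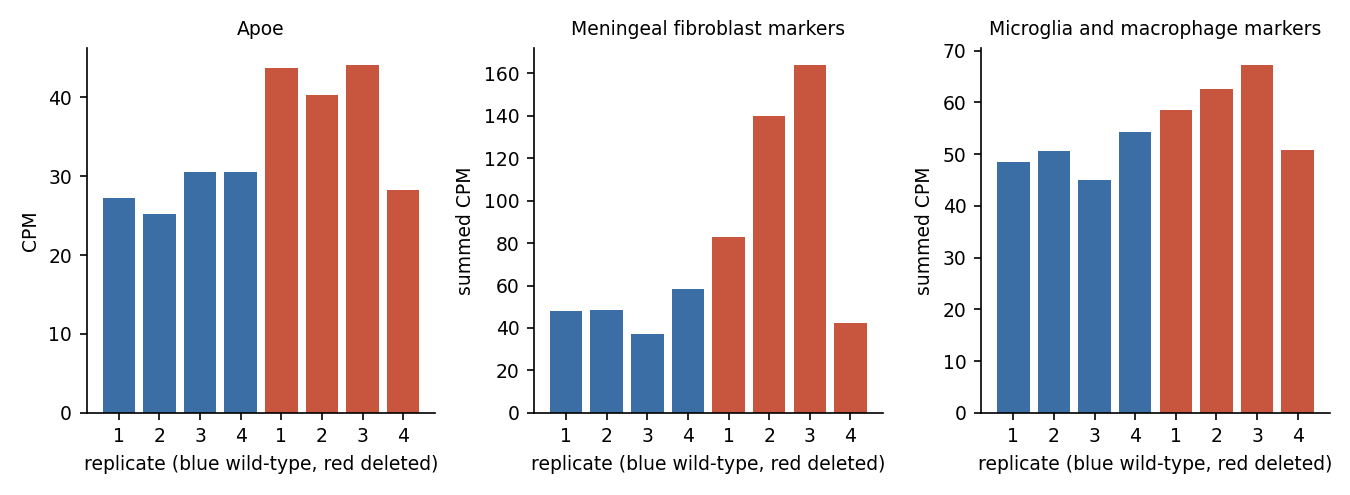
Apoe, the summed meningeal fibroblast markers and the summed microglia and macrophage markers in each library, in CPM, as 1 bar per library from 0 (blue wild-type, red deleted). All 3 are lowest among the deleted libraries in replicate 4, where Apoe is 28.2 CPM.

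In the wider pathway, 73 further genes were grouped by role, and 71 of them passed the filter on low counts. Of these 19 (26.8%) rose, 25 (35.2%) fell and 27 missed the threshold, with a median log2 fold change of -0.03. Over all tested genes the shares were 29.5% and 29.6%.

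The isoprenoid branch, which draws on the same prenyl units for ubiquinone, dolichol and protein prenylation, had 6 of 12 genes higher and 4 lower (median 0.19). This list and the next stand beside 29.5% higher and 29.6% lower among all tested genes. Coq2, which attaches the side chain of ubiquinone, rose from 20.8 ± 0.895 to 36.5 ± 0.199 CPM (log2 fold change 0.81, SE 0.05, adjusted p = 2.72e-07). Icmt, which methylates prenylated proteins, rose from 51.2 ± 2.58 to 66.4 ± 2.59 CPM and Fntb, a subunit of farnesyltransferase, fell from 40.7 ± 2.02 to 23.5 ± 1.39 CPM. Of 10 genes of precursor supply and other sterol enzymes, 2 rose and 2 fell (median 0.00). Acly, which makes cytosolic acetyl-CoA from citrate, rose from 631 ± 18.7 to 791 ± 12.4 CPM (log2 fold change 0.33, SE 0.03, adjusted p = 1.47e-05), while Acat1, the mitochondrial thiolase, fell from 165 ± 5.93 to 127 ± 2.35 CPM (log2 fold change -0.39, SE 0.04, adjusted p = 1.42e-05) and Acss2, which activates acetate, fell from 26.7 ± 2.496 to 22.3 ± 1.505 CPM.

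SREBP cleavage and sterol-regulated degradation had 3 of 10 genes higher and 3 lower (median -0.03). These counts are near the shares of all tested genes, 29.5% higher and 29.6% lower. Erlin2 and Syvn1, of the degradation machinery of the endoplasmic reticulum, rose (log2 fold change 0.31 and 0.31), and Vcp, the ATPase that extracts proteins from that membrane, fell (log2 fold change -0.31). Lipoprotein uptake and ester turnover had 1 of 10 tested genes higher and 5 lower (median -0.21), beside the same shares of all tested genes. Lrp8, a receptor for Reelin and ApoE, fell from 373 ± 19.4 to 260.5 ± 14.7 CPM (log2 fold change -0.52, SE 0.05, adjusted p = 1.39e-05). Scarb1, the HDL receptor, fell from 24.9 ± 1.12 to 15.3 ± 0.932 CPM, and Nceh1, a cholesterol ester hydrolase, rose from 5.66 ± 0.292 to 11.2 ± 0.537 CPM (log2 fold change 0.98, SE 0.07, adjusted p = 1.7e-06).

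Sterol transfer between membranes had 4 of 16 genes higher and 6 lower (median -0.08). For this list and those that follow, the shares over all tested genes were 29.5% higher and 29.6% lower. Gramd1b, a carrier of plasma membrane cholesterol to the endoplasmic reticulum, fell from 32.3 ± 3.77 to 14.7 ± 0.272 CPM (log2 fold change -1.13, SE 0.08, adjusted p = 1.21e-06). The oxysterol-binding-protein relatives Osbpl6 and Osbpl5 fell from 35.9 ± 3.96 to 17.2 ± 0.723 CPM and from 53.5 ± 2.92 to 36.4 ± 1.29 CPM. Export and lipoprotein remodelling had 2 of 8 genes higher and 4 lower (median -0.25). Abcg4, a pump related to Abcg1, fell from 30.6 ± 0.575 to 17.1 ± 1.45 CPM (log2 fold change -0.85, SE 0.06, adjusted p = 1.69e-06), and Lpcat3, a phospholipid acyltransferase, fell from 18.4 ± 0.369 to 12.7 ± 0.447 CPM. Pltp, the phospholipid transfer protein, rose from 10.8 ± 2.12 to 24.04 ± 3.13 CPM (log2 fold change 1.16, SE 0.14, adjusted p = 5.61e-05). Of 5 tested oxysterol and bile acid enzymes 1 rose, Cyp46a1, the neuronal cholesterol 24-hydroxylase (log2 fold change 0.30, adjusted p = 0.0256), and 1 fell, the oxysterol hydroxylase Cyp39a1 (log2 fold change -0.71, adjusted p = 2.03e-05). Cyp46a1 no longer passed without wild-type replicate 4 (adjusted p = 0.078) or without deleted replicate 1, 2 or 3 (0.0517, 0.0527 and 0.0621).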

How the data were processed

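Per the labels' protocols and design text, RNA of single embryonic cortices was extracted (RNeasy), turned into stranded poly(A) libraries and read in pairs. The deposited values are raw counts of reads per Entrez gene, not normalized. The submitters' processing notes name Subread 1.5.0, featureCounts and the genome build mm10. The matrix and the single-sample files differed in 0 places, and 0 columns were left unmapped. Symbols came from RefSeq for 25275 of 27179 genes. The members and gene lists were chosen with earlier results of these data known.

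The comparison used edgeR 4.0.16 (R 4.3.3) with filterByExpr, TMM scaling, a quasi-likelihood F-test on group alone and Benjamini-Hochberg adjustment. An SE is the absolute log2 fold change over the root of F. Groups came from the labels, and all 8 libraries entered. The p-values weigh each group difference against the spread between these embryos. Pairs of libraries within a group differed by more than sampling noise (chi-square 3.56 to 26.98 per degree of freedom). With 26312505 to 65523487 counts per library, 3 counts equal 0.0458 to 0.114 CPM, which covers counting error only. Ratios of gene pairs use log2 CPM with a prior count of 2. Named genes are all members, Taf8 and up to 3 genes with the smallest adjusted p of each wider list, with markers as list totals. Near-identical copies were searched at 95% identity over 200 bases. The steps were tested on simulated counts. Alternatives were other scalings, filters, tests (DESeq2 1.42.0, limma voom 3.58.1) and thresholds, a replicate block, marker levels as covariates, the single-sample files and each library left out. Leaving out wild-type replicate 3 together with deleted replicate 4 was chosen after seeing the data.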

Additional observations from a re-analysis of the deposited data

Results flagged for a closer look

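Of 62 sets of 4 libraries (31 genes in each group), 1 held a library far from the other 3. Hmgcs1 in Taf8-deleted replicate 4 was 404.2 CPM, where the other deleted libraries were 358.4 to 365.3 CPM, and its gap to the nearest was 0.849 of the whole range. Chance flags about 1 in 20 such sets.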

How the results depend on the processing

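Over 22 alternatives, 14 of the 31 genes kept direction and side of the threshold, and 17 changed in at least 1. The single-sample files hold the same counts as the matrix, so that alternative could only repeat the main fit. The count of enzymes that fell was 10 to 15 and of enzymes that rose 0 in each alternative, and that of regulators that fell was 3 to 5. Over all tested genes (13974 to 21129 by alternative), 2328 to 4824 fell and 2307 to 5257 rose. The replicate numbers do not pair the samples (correlations of same-numbered deviations -0.285, 0.014, -0.067 and -0.464), and with a replicate block 14 enzymes and 4 regulators fell, 1 regulator rose, and 2 transport genes fell and 1 rose, Npc2 being lost (adjusted p = 0.0685). Of all 15649 tested genes 4170 fell and 4115 rose with the replicate block. Regulators that rose were 0 with the microglia covariate. Transport genes that fell were 1 with the 1.2-fold test. Transport genes that rose were 2 with library size alone, without wild-type replicate 3 and without the pair of libraries chosen after seeing the data, and 0 at an adjusted p under 0.01, with the 1.2-fold test and with the meningeal or the microglia covariate. Of the 71 wider pathway genes 14 fell and 6 rose with the 1.2-fold test, where 2328 and 2307 of all 15649 tested genes did. With the microglia covariate 12 of the 71 rose, beside 2777 of all 15649. Pmvk was above 0 with the upper quartile (0.0002), library size alone (0.0128), the microglia covariate (0.0051) and without deleted replicate 1 (0.0043), with a range of -0.0813 to 0.0043 when 1 library was left out. Idi1 was above 0 with the meningeal (0.0263) and microglia (0.0707) covariates. Insig2 was above 0 with the upper quartile (0.0285), library size alone (0.0414), 1 CPM in 4 libraries (0.0057), the replicate block (0.0037), the meningeal covariate (0.0094), without wild-type replicate 3 (0.0512), without deleted replicate 2 (0.0183; range -0.0502 to 0.0512 when 1 library was left out) and without the pair chosen after seeing the data (0.0444). With 1 library left out, the differences of log2 ratios were -0.3487 to -0.2515 for Srebf1 to Srebf2, -0.3735 to -0.2172 for Insig1 to Insig2, -1.474 to -1.272 for Nr1h2 to Nr1h3, 0.3058 to 0.4532 for Abca1 to Abcg1 and -0.0547 to 0.0276 for Npc1 to Npc2, which was above 0 without wild-type replicate 3 (0.0008) or deleted replicate 3 (0.0276). The smallest exact permutation p of 4 against 3 libraries is 0.0571 (adjusted 0.0714), so these fits cannot pass the threshold. The median log2 fold change of all tested genes was -0.0086 to 0.0521 over the alternatives. Depth limits Nr1h3 (30 to 86 counts per library) most.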
